A study of Homo sapiens with 12 samples.

Results

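Knockdown of the mitochondrial citrate exporter SLC25A1 was compared directly with knockdown of the cytosolic aconitase ACO1, with attention to genes that the 2 knockdowns moved to opposite sides of the control level. The comparison used 6 of the 12 libraries in the series: the 3 labelled siSLC25A1 and the 3 labelled siACO1, taken by their labels with no reference to any measured value. All came from MiaPaCa-2, a human pancreatic cancer cell line, after siRNA transfection, and poly(A) RNA was sequenced. The 3 siControl libraries (control siRNA) were used where a direction relative to the control was needed, and the remaining 3 libraries, siACLY, entered the estimate of spread and are otherwise given for 2 genes alone. The labels name no siRNA sequence, dose, time after transfection or nutrient condition for any group, so each group stands for a single siRNA label in 1 cell line. They do not say whether replicates were separate cultures, so every p-value measures the spread between these libraries, which may be technical.

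SLC25A1 carries citrate out of the mitochondrial matrix in exchange for malate. In the cytosol, citrate is cleaved by ACLY to acetyl-CoA and oxaloacetate or converted by ACO1 to isocitrate, so the exporter and the aconitase stand at successive steps of the same route. ACO1 has another role: without its iron-sulfur cluster it becomes iron regulatory protein 1, which binds iron-responsive elements (IREs), short RNA hairpins. Binding in a 3′ UTR, as in TFRC mRNA, protects the transcript from decay, and binding in a 5′ UTR, as in ferritin mRNAs, blocks translation. The series title puts the work in the setting of ferroptosis, an iron-dependent form of cell death driven by lipid peroxidation, in which cystine import, glutathione and GPX4 are protective.

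Library totals ran from 24159424 to 43792811 counts over the 12 libraries, and from 24159424 to 31315425 over the 6 compared. Values are given as TMM-scaled CPM (the share of a library's counts, scaled to a common effective library size), and differences as log2 fold changes from edgeR's quasi-likelihood test, called at a Benjamini-Hochberg adjusted p under 0.05 over all 16197 genes tested. Replicates correlated at 0.991 to 0.994 (Pearson, log2 CPM), and every pair differed by more than sampling noise. The siACO1 replicate 3 library stood apart from the other two of its group, with a chi-square per degree of freedom of 11.4 and 12.1 against them, compared with 2.28 between replicates 1 and 2. Where leaving it out changed the call of a gene's printed difference, or moved that difference by more than 1.5 times, the value without it follows. The epithelial keratins KRT8 (1297 to 2469 plain CPM) and KRT18 (770 to 1363) and the mesenchymal VIM (3423 to 4877) were abundant in all libraries, while the epithelial adhesion genes EPCAM and CDH1 had at most 2 counts. Of 11 markers of other cell types 5 had no count in any library, and their summed level was 0.0792 to 0.411 CPM in siSLC25A1 and 0.167 to 0.331 CPM in siACO1. In bulk RNA, fewer cells of a kind and less RNA per cell cannot be told apart.

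Each siRNA lowered its own target. ACO1 was at 1.57, 2.05 and 1.41 CPM in the siACO1 libraries, 42.2, 41.5 and 44.9 CPM in siSLC25A1 and 44.4, 43.9 and 46.8 CPM in siControl. SLC25A1 was at 12.9, 10.5 and 11.7 CPM in the siSLC25A1 libraries, 120, 121 and 135 CPM in siACO1 and 133, 135 and 134 CPM in siControl. In each case the targeted libraries lay far below all the others. The direct difference was 4.67 ± 0.09 (log2, SE derived from the test statistic, adjusted p = 2.71e-25) for ACO1 and -3.42 ± 0.06 (adjusted p = 3.58e-26) for SLC25A1. SLC25A1 was not called between siACO1 and siControl (-0.09 ± 0.05, adjusted p = 0.141), but was called lower there without siACO1 replicate 3 (-0.15, adjusted p = 0.00415).

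Between the knockdowns, 6823 of 16197 genes were called (42.1%): 3536 were higher in siSLC25A1 (21.8%) and 3287 lower (20.3%), and 879 (5.43%) were at least 2-fold apart. The share of calls that were higher in siSLC25A1 was 51.8%, and 42.2% with scaling by library totals alone. The median difference over all tested genes was -0.01 on the log2 scale, and -0.06 with library totals. Against siControl, siSLC25A1 raised 1672 genes (10.3%) and lowered 1501 (9.27%), and siACO1 raised 2876 (17.8%) and lowered 3132 (19.3%). Both of these comparisons use the same 3 control libraries. Of the directly called genes, 3324 were called against siControl in siACO1 only, 1103 in siSLC25A1 only, 704 in both in opposite directions, 371 in both in the same direction, and 1321 in neither.

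Opposite movement was found for 704 genes (4.35% of those tested). Of these, 428 (2.64%) were raised in siSLC25A1 and lowered in siACO1, and 276 (1.7%) were lowered in siSLC25A1 and raised in siACO1. All 704 were also called in the direct comparison, 164 of them at least 2-fold apart. The direct difference of such a gene adds up both of its called differences, so a direct call follows largely from the selection. In 671 of them (95.3%) the 3 libraries of one knockdown all lay above every control and the 3 of the other all lay below. This share is drawn from the same values that selected the genes. The median difference between the knockdowns, without regard to sign, was 0.60 for the first kind and 0.68 for the second. Leaving out any 1 control library lowered the count to between 477 and 498, the lowest without siControl replicate 1, and leaving out siACO1 replicate 3 raised it to 843, of which 636 were among the 704. Under all 15 alternative settings that give this count, 331 of the 704 (47.0%) remained.

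**Figure D1:**
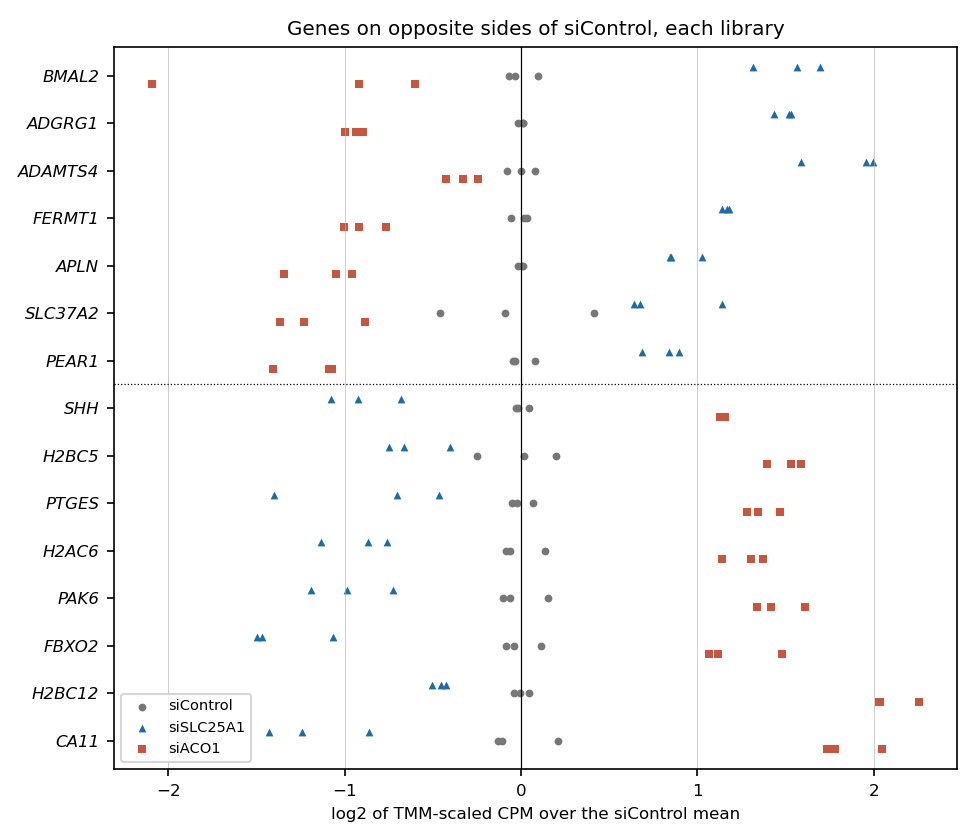
Each point is 1 library, placed by the log2 of its TMM-scaled CPM over the siControl mean (x axis), for 15 of the opposite genes with the largest direct differences under the naming rule (rows; 7 genes raised in siSLC25A1 above the dotted line, 8 raised in siACO1 under it). Circles are siControl, triangles siSLC25A1 and squares siACO1. The genes were chosen to lie on opposite sides of all 3 controls, so the picture shows the sizes and the spread between libraries, as with ADGRG1 at 70.1 to 74.7 CPM in siSLC25A1, 12.9 to 13.9 CPM in siACO1 and 25.6 to 26.1 CPM in siControl.

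Among the genes raised by siSLC25A1 and lowered by siACO1 with the largest differences were ADGRG1 and FERMT1. ADGRG1 (chr16:57610652-57665580, GRCh38), an adhesion G protein-coupled receptor, was at 70.1, 74.2 and 74.7 CPM in siSLC25A1, 13.9, 12.9 and 13.5 CPM in siACO1 and 26.0, 26.1 and 25.6 CPM in siControl. The groups did not overlap, and the direct difference was 2.44 ± 0.06 (adjusted p = 3.18e-23). FERMT1 (chr20:6074845-6123544), which encodes kindlin-1, an activator of integrins, was at 282, 290 and 288 CPM in siSLC25A1, 75.2, 67.8 and 63.9 CPM in siACO1 and 130, 123 and 131 CPM in siControl, a direct difference of 2.06 ± 0.05 (adjusted p = 3.18e-23). The siSLC25A1 libraries were again all high and the siACO1 libraries all low.

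BMAL2, a paralog of the clock transcription factor BMAL1, was at 10.6, 9.66 and 8.12 CPM in siSLC25A1, 0.765, 1.72 and 2.15 CPM in siACO1 and 3.49, 3.11 and 3.18 CPM in siControl (2.57 ± 0.19, adjusted p = 1.47e-11). The siACO1 libraries spread widely but stayed below the controls. APLN, the ligand of the apelin receptor, differed by 2.02 ± 0.15, SLC37A2, a sugar-phosphate transporter, by 1.99 ± 0.20, and PEAR1, a receptor of the EGF-repeat family, by 1.98 ± 0.14. ADAMTS4, a secreted metalloprotease, differed by 2.19 ± 0.10, nearly all of it a rise in siSLC25A1 (1.86). Its fall in siACO1 (-0.33, adjusted p = 0.0145) was not called without siACO1 replicate 3 or without siControl replicate 2 (-0.29 in both, adjusted p = 0.0688 and 0.0655).

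In the other direction, CA11 (chr19:48637942-48646312), a secreted relative of the carbonic anhydrases without their catalytic activity, was at 2.20, 1.93 and 2.86 CPM in siSLC25A1, 17.3, 17.8 and 21.5 CPM in siACO1 and 4.83, 6.02 and 4.75 CPM in siControl. All siSLC25A1 libraries were low, all siACO1 libraries high, and the direct difference was -3.03 ± 0.14 (adjusted p = 8.31e-17). SHH (chr7:155799986-155812273), the sonic hedgehog ligand, was at 3.80, 4.23 and 5.02 CPM in siSLC25A1, 17.9, 17.6 and 17.9 CPM in siACO1 and 8.29, 7.88 and 7.93 CPM in siControl (-2.04 ± 0.10, adjusted p = 1.68e-15). Its groups were likewise apart. FBXO2, an F-box protein that recognises glycoproteins, differed by -2.57 ± 0.14, with 5.27 to 7.09 CPM in siSLC25A1 and 31.1 to 41.5 CPM in siACO1. PTGES, the inducible prostaglandin E synthase, differed by -2.17 ± 0.14, with 5.27 to 10.1 CPM and 33.8 to 38.6 CPM. PAK6, a serine/threonine kinase, differed by -2.41 ± 0.13, but 44.1% of its exon bases overlap another annotated gene, so its counts are uncertain.

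Some of the largest direct differences were one-sided. OASL, an interferon-inducible relative of the oligoadenylate synthetases, was at 5.51, 5.63 and 7.05 CPM in siSLC25A1, 0.724, 0.455 and 0.706 CPM in siACO1 and 1.00, 0.971 and 0.715 CPM in siControl. The siSLC25A1 libraries stood above both other groups, with a direct difference of 3.27 ± 0.21 (adjusted p = 1.51e-13), and siACO1 was not called against siControl (-0.54 ± 0.26, adjusted p = 0.111). OASL was also above the controls in siACLY, at 4.47, 4.73 and 4.16 CPM. PCGF5, a Polycomb subunit, was at 11.0, 9.90 and 9.24 CPM in siSLC25A1, 2.37, 1.53 and 2.38 CPM in siACO1 and 7.87, 9.27 and 8.72 CPM in siControl. It was low in siACO1 and not called in siSLC25A1 (2.27 ± 0.14 directly, and 0.23 ± 0.12 with adjusted p = 0.189 for siSLC25A1 over siControl). In siACLY PCGF5 was at 5.21, 5.39 and 4.90 CPM, also below all 3 controls.

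The opposite genes were then read through 26 lists of pathway and cell-state genes with tested members. Lists share members (TFRC, HMOX1, SLC7A11, TXNRD1, CHAC1 and VEGFA each sit in more than one), and each is described by its counts and its median. These are to be read beside all tested genes, of which 21.8% were higher in siSLC25A1 and 20.3% lower, with a median of -0.01. Against siControl, siSLC25A1 raised 10.3% and lowered 9.27% of all tested genes. In siACO1 17.8% rose and 19.3% fell, and 4.35% were opposite.

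**Figure D2:**
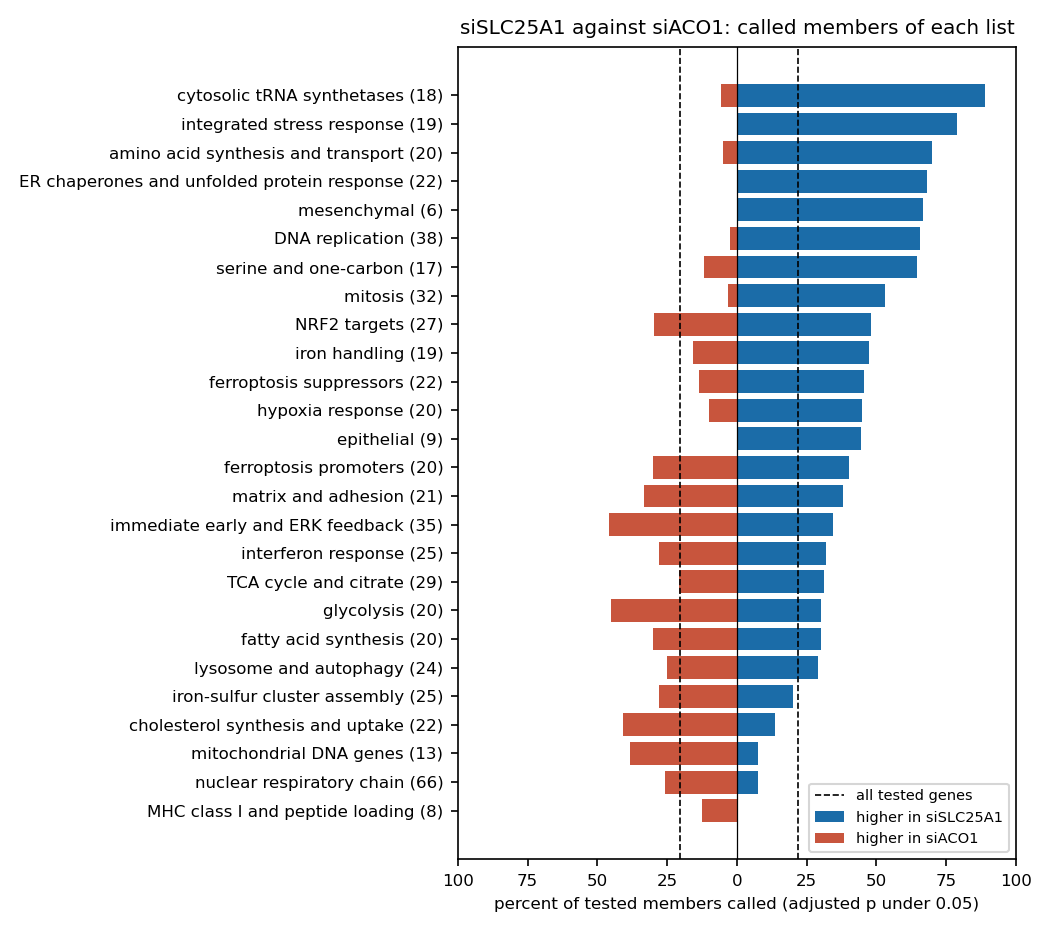
Bars give the percent of each list's tested members (number in brackets) called higher in siSLC25A1 (to the right) or higher in siACO1 (to the left) in the direct comparison at an adjusted p under 0.05, and dashed lines mark the same percent over all tested genes, 21.8 and 20.3. The longest bars to the right belong to the cytosolic tRNA synthetases (16 of 18), the integrated stress response (15 of 19) and amino acid synthesis and transport (14 of 20), and the longest to the left to immediate early genes (16 of 35), glycolysis (9 of 20) and cholesterol synthesis (9 of 22).

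Most genes of the amino acid stress programme were higher in siSLC25A1 than in siACO1. This programme, the integrated stress response, works through the transcription factor ATF4, whose translation rises when eIF2 is phosphorylated and which switches on genes for amino acid supply and tRNA charging. ATF4 itself (chr22:39519695-39522685) was at 427, 460 and 439 CPM in siSLC25A1, 245, 237 and 270 CPM in siACO1 and 357, 327 and 349 CPM in siControl. The siSLC25A1 libraries were all above the controls and the siACO1 libraries all below, with a direct difference of 0.82 ± 0.05 (adjusted p = 2.78e-14), 0.36 over siControl in siSLC25A1 and -0.46 in siACO1. Of its 31-base stretches 29.7% also occur in other transcripts, so part of its count may come from copies.

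Of 19 tested members of the integrated stress response list, 15 were higher in siSLC25A1 and none lower, with a median difference of 0.52 against -0.01 over all genes (16 and none, median 0.59, without siACO1 replicate 3). Against siControl, 12 rose and 2 fell in siSLC25A1, and none rose and 14 fell in siACO1. Opposite calls were made for 9, of which ATF4, ATF3, TRIB3 and CEBPG held under every alternative. TRIB3, a pseudokinase induced by ATF4, was at 172, 191 and 194 CPM in siSLC25A1, 96.9, 93.3 and 105 CPM in siACO1 and 128, 110 and 123 CPM in siControl. No library crossed into another group, and the direct difference was 0.91 ± 0.06 (adjusted p = 5.66e-12). ATF3, a stress-induced repressor of the same family, differed by 1.00 ± 0.11, and CEBPG, a dimer partner of ATF4, by 0.58 ± 0.05. VLDLR, a lipoprotein receptor, differed by 1.30 ± 0.13, CHAC1, which degrades glutathione, by 0.66 ± 0.07, JDP2 by 0.84 ± 0.11 and CEBPB by 0.71 ± 0.09. The pro-apoptotic factor DDIT3 (CHOP) and PPP1R15A (GADD34), which reverses eIF2 phosphorylation, were raised in siSLC25A1 (0.63 and 0.52) and not called in siACO1 (0.14 and 0.05, adjusted p = 0.268 and 0.521). XPOT, which exports tRNA from the nucleus, was the reverse: lowered in siACO1 (-0.84) and not called in siSLC25A1 (-0.03, adjusted p = 0.715).

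Most genes of the lists for amino acid supply were also higher in siSLC25A1 than in siACO1. In the serine and one-carbon list 11 of 17 tested members were higher in siSLC25A1 and 2 lower (median 0.29), 11 had fallen and 2 risen in siACO1, and 5 had risen and none fallen in siSLC25A1. The mitochondrial folate enzymes MTHFD2 and MTHFD1L were called in opposite directions. MTHFD1L was at 164, 178 and 172 CPM in siSLC25A1, 102, 101 and 106 CPM in siACO1 and 146, 135 and 143 CPM in siControl (0.74 ± 0.04, adjusted p = 2.73e-14), with no overlap. MTHFD2 differed by 0.62 ± 0.04, although 33.2% of its exon bases overlap another annotated gene. The enzymes of serine synthesis fell in siACO1 and were not called in siSLC25A1. PHGDH, the first enzyme, was at 209, 259 and 257 CPM in siSLC25A1, 128, 127 and 137 CPM in siACO1 and 270, 270 and 272 CPM in siControl. The siSLC25A1 libraries lay below the controls, which the test did not call (-0.16 ± 0.06, adjusted p = 0.0673), though it did so under 5 of the alternatives: DESeq2, no filter on low counts, the replicate block, and without siSLC25A1 replicate 2 or 3 (-0.22 to -0.16). PSAT1, the next enzyme, fell by 0.96 in siACO1 and differed from siControl by -0.06 in siSLC25A1 (adjusted p = 0.491). The 2 members that were lower in siSLC25A1 were MTHFD2L (-0.37) and AMT (-1.96), a subunit of the glycine cleavage system.

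Among 20 tested genes of amino acid synthesis and transport, 14 were higher in siSLC25A1 and 1 lower (median 0.38). Against siControl 10 had fallen and 2 risen in siACO1, and 9 had risen and none fallen in siSLC25A1. SLC7A11, the cystine importer that feeds glutathione synthesis, was at 61.4, 71.4 and 63.7 CPM in siSLC25A1, 37.1, 39.3 and 35.0 CPM in siACO1 and 52.0, 49.0 and 50.2 CPM in siControl. It was high in all siSLC25A1 libraries and low in all siACO1 libraries, a difference of 0.82 ± 0.06 (adjusted p = 7.15e-12). The cationic amino acid transporter SLC7A1 (0.77 ± 0.05), the glutamine transporter SLC38A1 (0.45 ± 0.04) and the alanine aminotransferase GPT2 (0.74 ± 0.05) were also called in opposite directions, and all 4 held under every alternative. SLC7A5 and SLC3A2, the 2 chains of the leucine transporter, fell in siACO1 (-0.71 and -0.49) and were not called in siSLC25A1 (0.06 and 0.07). ASNS, asparagine synthetase, fell by 0.76 in siACO1 and stood at 0.01 ± 0.11 in siSLC25A1; its exons and those of DDIT3 overlap other annotated genes, so both counts are uncertain. SLC38A2, a neutral amino acid transporter, was the member that was lower in siSLC25A1 (-0.18).

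Of 18 tested cytosolic tRNA synthetases, 16 were higher in siSLC25A1 and 1 lower, with a median of 0.40. In siACO1 15 had fallen and 1 had risen, while in siSLC25A1 2 had risen and 1, WARS1 (-0.26), had fallen. AARS1 and TARS1, which charge alanine and threonine tRNAs, moved in opposite directions. TARS1 was at 322, 328 and 322 CPM in siSLC25A1, 219, 220 and 227 CPM in siACO1 and 284, 286 and 291 CPM in siControl, a difference of 0.55 ± 0.04 (adjusted p = 9.93e-13). AARS1 was at 806, 889 and 907 CPM, 635, 609 and 615 CPM, and 718, 666 and 719 CPM in the same groups (0.49 ± 0.04). In both genes the 3 groups were fully separate.

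**Figure D3:**
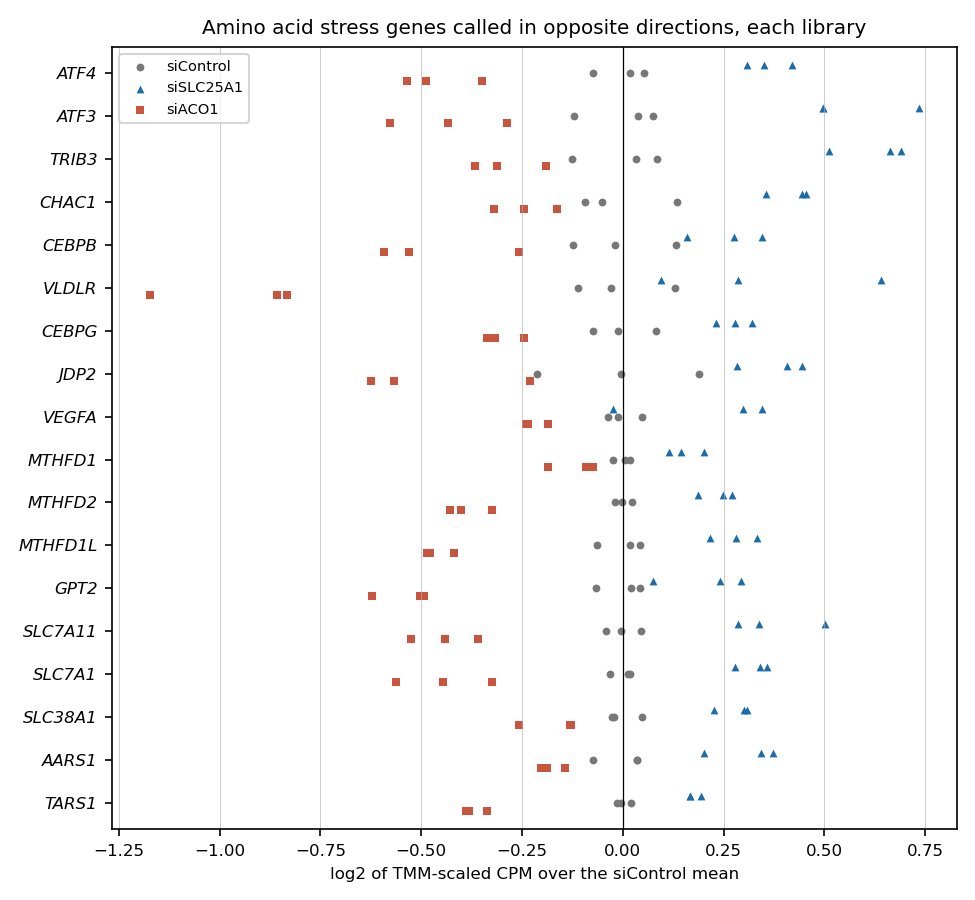
Each point is 1 library, placed by the log2 of its TMM-scaled CPM over the siControl mean (x axis), for the members of the 4 amino acid stress lists called in opposite directions (rows). Triangles (siSLC25A1) lie to the right and squares (siACO1) to the left of the circles (siControl) for genes such as ATF4 (0.36 and -0.46 over siControl) and SLC7A11 (0.38 and -0.44), while single siSLC25A1 libraries of VLDLR and VEGFA fall among the controls.

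ATF4 pairs with C/EBP proteins on the C/EBP-ATF response element, whose core was searched as TGATGNAA on both strands (TTNCATCA on the other) in RefSeq promoter windows of 300 bases, 250 before to 50 after the start, on GRCh38.p14. The core was present in 3.62% of all 35116 windows and in 4.46% of 27305 genes. Among the 59 members of the 4 amino acid lists with a window, 18 held it (30.5%): 9 of the 15 members called in opposite directions and 9 of the 44 others. The match is a description of these letters and not evidence of a bound site. The lists were gathered around the ATF4 programme and chosen with earlier results of these data known. The split by opposite calls uses these same data, so the shares test nothing about the element. Windows of 30 bases from the 9 opposite members are shown 5′ to 3′ on the gene's strand with the core in capitals, to set the element beside the genes it lies next to.
ATF3 (chr1:212565205-212565234): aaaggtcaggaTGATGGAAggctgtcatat
CEBPG (chr19:33374060-33374089): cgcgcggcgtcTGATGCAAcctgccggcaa
JDP2 (chr14:75427995-75428024): atagccggggcTGATGCAAcccgtcccgcc
CHAC1 (chr15:40953251-40953280): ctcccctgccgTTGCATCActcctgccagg
MTHFD1L (chr6:150866346-150866375): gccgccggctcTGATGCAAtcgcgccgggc
SLC7A1 (chr13:29595663-29595692): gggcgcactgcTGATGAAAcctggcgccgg
SLC38A1 (chr12:46266502-46266531): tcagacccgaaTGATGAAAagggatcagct
AARS1 (chr16:70289675-70289704): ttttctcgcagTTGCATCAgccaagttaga
TARS1 (chr5:33440956-33440985): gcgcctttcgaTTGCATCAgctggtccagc

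The endoplasmic reticulum arm of the stress response differed in its make-up. Of 22 tested chaperones and unfolded protein response genes, 15 were higher in siSLC25A1 and none lower (median 0.24), but 17 had risen in siSLC25A1 and none fallen, while in siACO1 5 had risen and 4 fallen. The difference therefore lay mostly on the siSLC25A1 side, unlike that of the tRNA synthetases. XBP1, a transcription factor of this response, was at 177, 202 and 189 CPM in siSLC25A1, 120, 124 and 143 CPM in siACO1 and 137, 126 and 134 CPM in siControl. Its siACO1 libraries overlapped the controls (-0.03, adjusted p = 0.69), although XBP1 was called lower in siACO1 without siACO1 replicate 3 (-0.11, adjusted p = 0.0492). The direct difference was 0.55 ± 0.06 (adjusted p = 3.72e-08). HERPUD1, which works in degradation of misfolded proteins, differed by 0.71 ± 0.08 and HSPA5 (BiP), the main chaperone, by 0.27 ± 0.07. SDF2L1 and ERN1 (IRE1) were called in opposite directions (direct differences 0.59 ± 0.08 and 0.42 ± 0.07), and neither call held under every alternative.

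Several iron uptake genes were higher in siSLC25A1 than in siACO1. TFRC (chr3:196027183-196082189), the transferrin receptor, was at 926, 941 and 910 CPM in siSLC25A1, 544, 566 and 528 CPM in siACO1 and 751, 779 and 756 CPM in siControl. All siSLC25A1 libraries lay above the controls and all siACO1 libraries below, with a direct difference of 0.76 ± 0.04 (adjusted p = 9.08e-16), 0.28 over siControl in siSLC25A1 and -0.48 in siACO1. STEAP3, the endosomal reductase that prepares transferrin-bound iron for export, was at 63.2, 62.5 and 64.0 CPM in siSLC25A1, 26.3, 20.9 and 24.2 CPM in siACO1 and 53.4, 50.8 and 53.0 CPM in siControl (1.41 ± 0.06, adjusted p = 5.48e-17). HMOX1, which releases iron from heme, was at 29.6, 29.6 and 32.5 CPM, 15.7, 13.3 and 17.3 CPM, and 20.8, 19.2 and 19.7 CPM in the same groups (0.99 ± 0.08, adjusted p = 4.46e-11). These 3 genes were separate in all groups and held under every alternative. SLC39A14, an importer of iron not bound to transferrin, differed by 0.48 ± 0.04; its rise in siSLC25A1 (0.15) was not called without siSLC25A1 replicate 3 or siControl replicate 2 (0.13 in both).

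IREs of TFRC and of the ferritin genes are shown because ACO1 protein can bind them. They were found in the GENCODE release 29 transcripts (GRCh38) as a CAGTGN loop, in capitals, closed by a stem with a bulged C on the 5′ side. The pattern was present in 36 of 20371 coding genes scanned (0.177%). The 4 elements of TFRC that matched the pattern lie in the 3′ UTR on the minus strand, and that of each ferritin gene in the 5′ UTR. Elements with a less regular stem would be missed, so 4 need not be the full number in TFRC.
TFRC (chr3:196050979-196051007): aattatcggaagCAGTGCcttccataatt
TFRC (chr3:196050575-196050603): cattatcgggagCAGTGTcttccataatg
TFRC (chr3:196050510-196050538): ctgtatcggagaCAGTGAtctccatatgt
TFRC (chr3:196050463-196050491): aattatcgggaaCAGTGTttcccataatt
FTH1 (chr11:61967574-61967602, minus strand): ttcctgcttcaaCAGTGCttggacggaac
FTL (chr19:48965335-48965363, plus strand): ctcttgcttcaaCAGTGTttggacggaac

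The ferritin subunits, which store iron, differed from each other. FTL, the light chain, was at 2778, 2945 and 2798 CPM in siSLC25A1, 1929, 1869 and 2186 CPM in siACO1 and 3088, 3048 and 3011 CPM in siControl. It fell in siACO1 (-0.61), and the direct difference was 0.51 ± 0.05 (adjusted p = 2.52e-10). All siSLC25A1 libraries lay below the controls too, which the test called only without siACO1 replicate 3 (-0.10 in both fits, adjusted p = 0.117 and 0.00734). FTH1, the heavy chain, was at 826, 837 and 844 CPM in siSLC25A1 and 815, 839 and 847 CPM in siACO1, with a difference of 0.00 ± 0.04 (adjusted p = 0.959). FTL shares 33.2% of its 31-base stretches with other transcripts, and FTH1 also shares sequence with copies elsewhere, so both counts are uncertain. RNA level does not report the translation that an IRE in the 5′ UTR controls.

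Of the other genes with IREs or related roles, SLC11A2, an iron transporter, differed by 0.41 ± 0.07, and EPAS1 (HIF-2α) by 0.88 ± 0.25 at 1.06 to 2.69 CPM. EPAS1 fell in siACO1 (-0.80), which was not called without siControl replicate 2 (-0.46, adjusted p = 0.182). CDC14A, which has an IRE in its 3′ UTR, was not called (-0.30). Over the iron handling list 9 of 19 tested members were higher in siSLC25A1 and 3 lower (median 0.11, and 0.07 with library totals), 5 had risen in siSLC25A1 and none fallen, and 4 had risen and 9 fallen in siACO1. In the assembly of iron-sulfur clusters, the cofactors of aconitases, 5 of 25 genes were higher and 7 lower (median -0.02). The share called was 48.0%, near the 42.1% over all genes. FDXR, ferredoxin reductase, moved in the opposite sense to TFRC: it was at 31.1, 30.1 and 29.8 CPM in siSLC25A1, 44.3, 43.6 and 46.6 CPM in siACO1 and 35.5, 35.2 and 39.0 CPM in siControl (-0.56 ± 0.06, adjusted p = 3.42e-09). Its siSLC25A1 libraries were all below, and its siACO1 libraries all above, the controls.

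**Figure D4:**
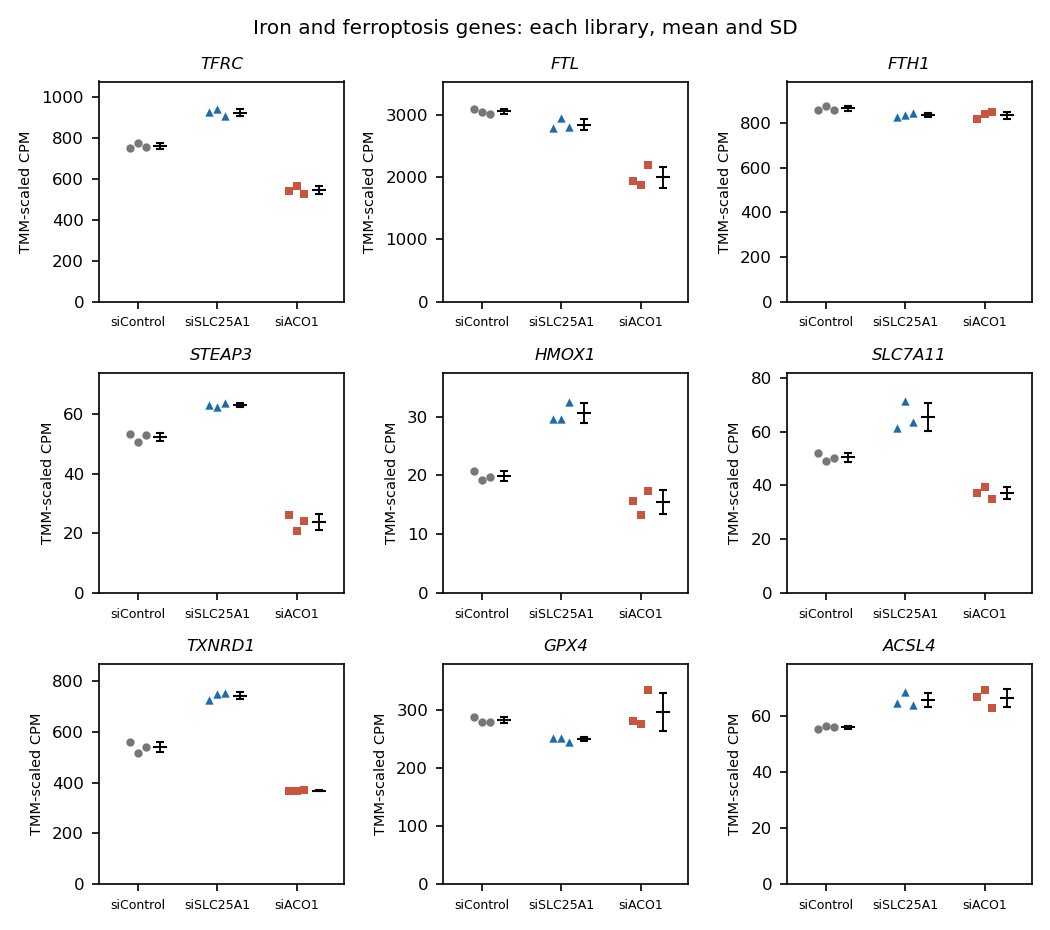
Panels give TMM-scaled CPM (y axis, from 0) of 9 genes of iron handling and ferroptosis in each library, with the group mean and SD (n = 3) to the right of the points; circles are siControl, triangles siSLC25A1 and squares siACO1. TFRC, STEAP3, HMOX1, SLC7A11 and TXNRD1 lie above the controls in siSLC25A1 and below them in siACO1, FTH1 and ACSL4 overlap between the knockdowns, and GPX4 is lower in siSLC25A1 than in siACO1.

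Genes of antioxidant defence split. TXNRD1, the cytosolic thioredoxin reductase, was at 728, 750 and 753 CPM in siSLC25A1, 367, 368 and 370 CPM in siACO1 and 560, 518 and 542 CPM in siControl. The knockdowns lay on either side of the controls with a direct difference of 1.01 ± 0.04 (adjusted p = 1.66e-18). SRXN1, sulfiredoxin, was lower in siACO1 (-0.55) and not called in siSLC25A1 (0.05), a direct difference of 0.61 ± 0.08. PIR, an iron-binding nuclear protein and target of NRF2, moved the other way at 8.86, 6.52 and 7.38 CPM in siSLC25A1, 14, 13.2 and 16.3 CPM in siACO1 and 10.8, 10.3 and 10.2 CPM in siControl (-0.93 ± 0.11, adjusted p = 5.96e-08). Of 27 tested NRF2 targets 13 were higher in siSLC25A1 and 8 lower, with a median of 0.08 (0.16 without siACO1 replicate 3). More members fell than rose against siControl in both knockdowns, 9 against 4 in siSLC25A1 and 13 against 2 in siACO1. HMOX1, TXNRD1, SLC7A11 and PIR were the 4 members called in opposite directions.

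Among 22 ferroptosis suppressors 10 were higher in siSLC25A1 and 3 lower (median 0.13, and 0.09 with library totals). GPX4, which reduces lipid peroxides, was one of the 3: it was at 252, 252 and 245 CPM in siSLC25A1, 279, 275 and 334 CPM in siACO1 and 287, 278 and 279 CPM in siControl. The siACO1 replicate 3 library was high, the siSLC25A1 libraries were all low, and the other siACO1 libraries lay next to the controls, with a direct difference of -0.25 ± 0.05 (adjusted p = 0.000521), or -0.15 (adjusted p = 0.000973) without siACO1 replicate 3. The fall of GPX4 in siSLC25A1 (-0.17, adjusted p = 0.022) was not called without any 1 of the siSLC25A1 replicates, siControl replicate 1 or siControl replicate 3 (-0.18 to -0.16). GCH1, which makes tetrahydrobiopterin, was raised in both, by 0.57 in siSLC25A1 and 1.38 in siACO1, and differed by -0.81 ± 0.11. AIFM2 (FSP1), a ubiquinone reductase, was at 59.2 to 61.5 CPM in siSLC25A1 and 57.5 to 61.2 CPM in siACO1 (0.03 ± 0.05, adjusted p = 0.683).

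Of 20 ferroptosis promoters 8 were higher in siSLC25A1 and 6 lower, with a median of -0.01 (-0.05 with library totals). ACSL4, which loads polyunsaturated fatty acids for membrane lipids, was at 64.5, 68.6 and 63.8 CPM in siSLC25A1, 66.8, 69.1 and 62.8 CPM in siACO1 and 55.2, 56.3 and 56.1 CPM in siControl. Both knockdowns were above the controls (0.23 and 0.25) and overlapped each other (-0.01 ± 0.05, adjusted p = 0.848). The lipoxygenase ALOXE3 differed by 1.30 ± 0.21 at 0.738 to 2.82 CPM, and CYB5R1, an electron donor in lipid peroxidation, by -0.65 ± 0.07, having risen in siACO1 (0.50) with no call in siSLC25A1 (-0.15).

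More sterol genes were higher in siACO1 than in siSLC25A1. Of 22 tested genes of cholesterol synthesis and uptake, 9 were lower in siSLC25A1 and 3 higher, with a median of -0.06 (-0.11 with library totals). Against siControl 11 rose and 2 fell in siACO1, and 5 rose and 4 fell in siSLC25A1. DHCR7, which carries out the last step of the pathway, was at 49.1, 49.8 and 57.8 CPM in siSLC25A1, 83.8, 83.1 and 94.5 CPM in siACO1 and 70.3, 65.6 and 68.6 CPM in siControl. The groups did not overlap, and the direct difference was -0.74 ± 0.06 (adjusted p = 3.79e-11). TM7SF2, a sterol reductase, was also called in opposite directions under every alternative (-0.87 ± 0.09). MSMO1, a sterol oxidase, rose in siACO1 (0.84) and was not called in siSLC25A1 (-0.02 ± 0.07). The same held for INSIG1, a sterol-sensing retention protein (0.52 and -0.11), and SQLE, squalene epoxidase (0.48 and 0.12). In fatty acid synthesis 6 of 20 genes were higher in siSLC25A1 and 6 lower, and none was called in opposite directions.

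In carbon metabolism, single genes moved in opposite directions. HK2, the inducible hexokinase, was at 225, 238 and 228 CPM in siSLC25A1, 115, 118 and 106 CPM in siACO1 and 173, 161 and 174 CPM in siControl (1.03 ± 0.05, adjusted p = 7.99e-17). ALDOC, a brain-type aldolase, was at 1.46, 1.61 and 1.70 CPM, 4.63, 4.16 and 4.98 CPM, and 2.6, 2.69 and 2.86 CPM in the same groups (-1.53 ± 0.16, adjusted p = 3.43e-09). Both genes were separate in all groups, HK2 high and ALDOC low in siSLC25A1. SLC2A3, a glucose transporter, rose in siACO1 (0.79), was not called in siSLC25A1 (-0.09) and differed by -0.89 ± 0.08. Of 20 tested glycolysis genes 6 were higher in siSLC25A1 and 9 lower, and the median of 0.01 turned to -0.04 with library totals. Among 29 genes of the TCA cycle and citrate handling 9 were higher and 6 lower (median 0.01), 51.7% called against 42.1% over all genes. Of 20 hypoxia response genes 9 were higher and 2 lower (median 0.17), among them NDRG1, a hypoxia-induced and iron-responsive gene, at 15.4, 16.8 and 16.8 CPM in siSLC25A1, 6.08, 6.24 and 5.01 CPM in siACO1 and 12.0, 11.9 and 10.9 CPM in siControl (1.5 ± 0.1, adjusted p = 3.27e-13).

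For the nuclear genes of the respiratory chain the surplus of lower over higher members rested on 1 library. Of 66 tested genes 5 were higher in siSLC25A1 and 17 lower, with a median of -0.07. The share called, 33.3%, was below the 42.1% over all tested genes, of which 20.3% were lower. Without siACO1 replicate 3 the count was 11 higher and 10 lower and the median 0.02. The deviation of each library was taken from the mean of the other libraries of its group. For siACO1 replicate 3 it correlated with transcript length at a Spearman rho of -0.0908 across 15384 genes, which are not independent. The value was 0.0640 and 0.0662 for the other siACO1 libraries and at most 0.00423 for the siSLC25A1 libraries. Replicate 3 is part of the reference for those other siACO1 libraries, so their values are not separate from its own. The part of this relation with length in the respiratory chain result was not tested. Of the 13 genes of mitochondrial DNA, 1 was higher and 5 lower (median -0.14), or 3 and 4 (median -0.05) without that library.

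Most DNA replication genes were higher in siSLC25A1, and more of them had fallen in siACO1 than had risen in siSLC25A1. Of 38 tested, 25 were higher and 1 lower (median 0.26, or 23 and 1 with a median of 0.24 without siACO1 replicate 3), and 20 had fallen and 2 risen in siACO1, against 6 risen and 2 fallen in siSLC25A1. E2F1, a transcription factor of S-phase entry, was at 117, 103 and 107 CPM in siSLC25A1, 66.8, 64.6 and 74.1 CPM in siACO1 and 91.9, 93.8 and 90.9 CPM in siControl. It was called in opposite directions, with groups apart and a direct difference of 0.67 ± 0.06 (adjusted p = 1.47e-10). The licensing factor CDC6 (-0.62), the helicase subunit MCM5 (-0.56) and the helicase cofactor GINS3 (-0.62) fell in siACO1 and were not called in siSLC25A1 (0.11, 0.12 and 0.12); CDC6 was called there without siACO1 replicate 3, at the same size (0.11, adjusted p = 0.0479). POLA1, the primase-coupled polymerase, differed by 0.74 ± 0.05 and MCM10, a replication initiator, by 0.54 ± 0.06. Mean log2 CPM of the replication list, centred per gene, was 0.276, 0.113 and 0.0963 in siSLC25A1 and 0.0885, 0.142 and 0.0979 in siControl. Only siSLC25A1 replicate 1 lay above all controls. Of 32 mitosis genes 17 were higher and 1 lower (median 0.15), and here 15 had risen and none fallen in siSLC25A1 against 8 risen and 5 fallen in siACO1. The same mean for the mitosis list was 0.293, 0.107 and 0.112 in siSLC25A1, again highest in replicate 1, and -0.00322, -0.0210 and 0.000949 in siControl. ANLN, a scaffold of the cytokinetic ring, was at 609, 543 and 552 CPM in siSLC25A1, 272, 286 and 264 CPM in siACO1 and 461, 483 and 485 CPM in siControl (1.05 ± 0.05, adjusted p = 7.99e-17). UBE2C, a ubiquitin-conjugating enzyme of mitotic exit, rose in siSLC25A1 (0.45) and was not called in siACO1 (-0.09), with a direct difference of 0.53 ± 0.04; it was called lower in siACO1 without siACO1 replicate 3 (-0.13, adjusted p = 0.0108).

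Most histone genes of the replication-dependent clusters were lower in siSLC25A1. This list was chosen after its values had been seen, since H2BC12, H1-2, H2AC6 and H2BC5 were among the genes with the largest differences. Of 31 tested, none was higher in siSLC25A1 and 24 were lower, with a median difference of -1.48, and 16 had risen and none fallen in siACO1, against none risen and 6 fallen in siSLC25A1. Many of the 31 averaged under 1 CPM in every group, among them H2BC7 at 0.153 CPM in siSLC25A1 and 0.424 CPM in siACO1. Leaving out single libraries lost the direct calls of H2BC7, H4C9, H4C5, H2AC15, H2AC8 and H3C6. It gained those of H1-4, H2AC14 and H2BC17. H1-2, a linker histone, was at 8.65, 5.92 and 6.96 CPM in siSLC25A1, 38.6, 38.2 and 45.6 CPM in siACO1 and 11.4, 8.96 and 8.79 CPM in siControl (-2.50 ± 0.14, adjusted p = 5.02e-10). Only the siACO1 libraries stood clear of the controls by a wide margin, and siSLC25A1 was not called against them (-0.43, adjusted p = 0.0657), although it was without siSLC25A1 replicate 1 or siACO1 replicate 3 (-0.60 and -0.43, adjusted p = 0.0202 and 0.0256), with no filter on low counts and with the replicate block. H2AC6 was at 2.89, 3.74 and 3.48 CPM in siSLC25A1, 15.7, 14 and 16.5 CPM in siACO1 and 6.08, 5.99 and 6.97 CPM in siControl, and fell in one knockdown and rose in the other (-2.19 ± 0.14, adjusted p = 1.81e-12). H2BC12 and H2BC5 differed by -2.58 ± 0.07 and -2.11 ± 0.15. H2BC5 was not called in siSLC25A1 without siSLC25A1 replicate 3 or siControl replicate 2 (-0.54 and -0.50). Most mRNAs of these genes lack a poly(A) tail and the libraries were made from poly(A) RNA, so the values describe the tailed fraction that was captured. Near-identical copies or exons shared with another gene make the counts of 10 of 29 annotated members uncertain, among them H2BC12, with 86.3% of its 31-base stretches found in other transcripts.

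**Figure D5:**
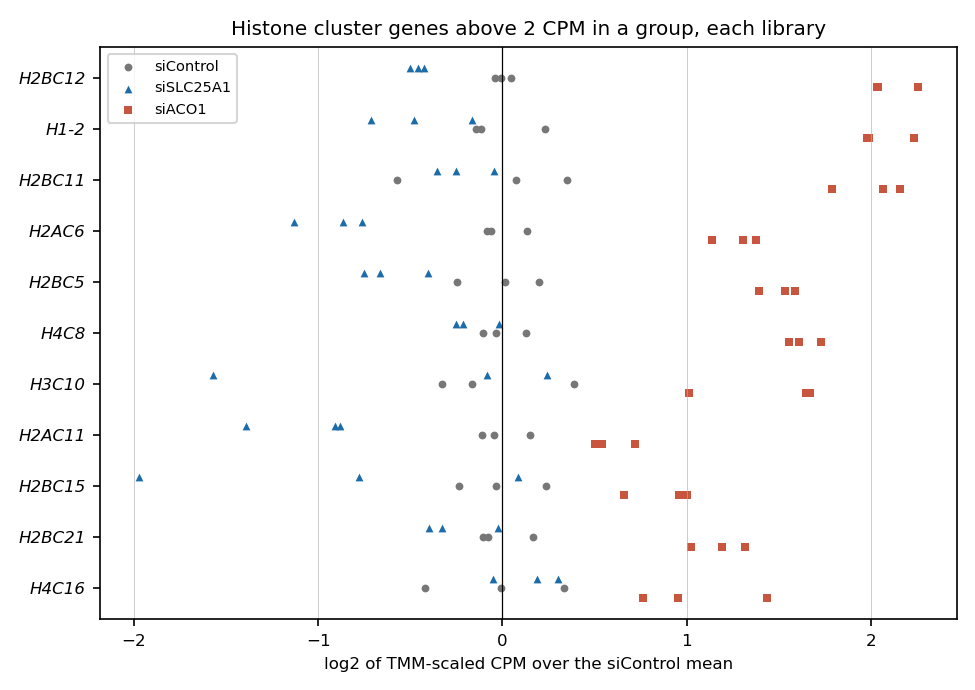
Each point is 1 library, placed by the log2 of its TMM-scaled CPM over the siControl mean (x axis), for those histone cluster genes whose mean reached 2 CPM in some group (rows). Squares (siACO1) lie to the right of all circles (siControl) in every row shown, as with H1-2 at 38.2 to 45.6 CPM against 8.79 to 11.4 CPM, while triangles (siSLC25A1) lie at or to the left of the circles in most rows and among them in others.

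More immediate early genes, which respond to ERK signalling, rose than fell in either knockdown, and the direct comparison split them: of 35 tested 12 were higher in siSLC25A1 and 16 lower, and 19 rose and 3 fell against siControl in each knockdown. FOSB was at 5.68, 5.47 and 3.69 CPM in siSLC25A1, 24, 27.7 and 18.8 CPM in siACO1 and 1.03, 1.33 and 0.929 CPM in siControl (-2.24 ± 0.16, adjusted p = 4.39e-09). EGR1 was at 103, 116 and 102 CPM, 215, 224 and 203 CPM, and 53.9, 58.9 and 44.2 CPM in the same groups (-1.0 ± 0.08, adjusted p = 5.78e-07). Both transcription factors were thus above the controls in either knockdown and further above in siACO1. HBEGF, a ligand of EGFR, had the reverse order at 41.0, 41.5 and 41.7 CPM in siSLC25A1, 17.6, 20.3 and 20.3 CPM in siACO1 and 14.2, 12.7 and 14.8 CPM in siControl (1.09 ± 0.07, adjusted p = 1.48e-13). CCN1, a matricellular protein, and KLF4, a transcription factor, were called in opposite directions under every alternative. CCN1 was at 145, 131 and 126 CPM in siSLC25A1, 68.9, 63.5 and 68.2 CPM in siACO1 and 104, 83.7 and 91.6 CPM in siControl (1.00 ± 0.07, adjusted p = 1.64e-10), and KLF4 differed by 0.82 ± 0.07. FOSL1 differed by 0.61 ± 0.04 and PHLDA1 by -0.38 ± 0.04.

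Interferon response genes were mixed: 8 of 25 tested were higher in siSLC25A1 and 7 lower, and the median of -0.11 became 0.08 without siSLC25A1 replicate 1. IFIH1 (MDA5), a sensor of double-stranded RNA, was at 1.33, 1.53 and 1.41 CPM in siSLC25A1, 0.121, 0.163 and 0.0642 CPM in siACO1 and 0.558, 0.527 and 0.429 CPM in siControl. The order held in all libraries, but the level is low and the fitted difference of 3.57 ± 0.38 (adjusted p = 8.6e-09) rests on few counts in siACO1. IFIT3 rose in siSLC25A1 (1.24) and was not called in siACO1 (-0.19), with a direct difference of 1.43 ± 0.11, and HERC5 and DDX60 differed by 1.74 ± 0.24 and 1.56 ± 0.21. IFI6, at 3.56, 4.83 and 2.57 CPM in siSLC25A1 and 8.45, 8.91 and 8.60 CPM in siACO1 against 3.32, 4.08 and 3.79 CPM in siControl, was the reverse (-1.24 ± 0.15), as was the signal transducer STAT2 (-0.59 ± 0.06).

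KRT19, a ductal keratin, was at 123, 124 and 115 CPM in siSLC25A1, 47.2, 52.4 and 56.5 CPM in siACO1 and 85.8, 88.5 and 91.2 CPM in siControl, with no overlap (1.21 ± 0.05, adjusted p = 3.51e-17). KRT8 and KRT18, by contrast, fell in both knockdowns and further in siACO1 (direct differences 0.65 ± 0.04 and 0.57). The integrin subunits ITGA6 (0.89 ± 0.06) and ITGA3 (0.48 ± 0.04) were raised in siSLC25A1 and lowered in siACO1, and COL6A1, a collagen VI chain, was lowered and raised (-0.45 ± 0.04). TGFBI, a secreted matrix protein induced by TGF-β, was at 36.2, 38.6 and 36.4 CPM in siSLC25A1, 17.2, 17.4 and 17.9 CPM in siACO1 and 27.9, 30.2 and 25.1 CPM in siControl (1.08 ± 0.07, adjusted p = 5.76e-13). Of 21 matrix and adhesion genes 8 were higher in siSLC25A1 and 7 lower, and the list's median of 0.09 ranged from -0.03 to 0.16 as single libraries were left out, lowest without siSLC25A1 replicate 3 and highest without siACO1 replicate 1.

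In all, 75 genes that were named by rule or belonged to a list were called in opposite directions, and 47 of them held under every alternative that could give both calls. The 28 others kept their direct call under every alternative in which they were tested. In 27 of the 28 a call against siControl was lost in at least 1 alternative, among them ADAMTS4, AK4, ALOXE3, BUB1, CEBPB, CHAC1, CLDN1, DDX60, ERN1, ERO1A, FOSL1, H2BC5, HERC5, JDP2, MCM10, MT-ND2, MTHFD1, MVK, PFKM, PHLDA1, POLA1, SDF2L1, SLC39A14, SUCLA2, VEGFA and VLDLR. IFIH1, the remaining gene, was untested where 10 counts were asked of every library. For CHAC1 the siACO1 call was lost only without siControl replicate 1 (-0.17, adjusted p = 0.0666), and likewise for HERC5 (-0.70, adjusted p = 0.058). VLDLR is an example of a wider dependence, with its siSLC25A1 call lost without siSLC25A1 replicate 2 or 3 or siControl replicate 1 or 3 (0.19 to 0.38).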

How the data were processed

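Poly(A) RNA of MiaPaCa-2 cells was sequenced in 12 libraries of 4 groups with 3 replicates each. The authors deposited 1 table of raw counts per gene, with 1 column per library, matched to the labels by column name (0 columns were left unmatched). The submitters' processing notes name CASAVA, FastQC, Trim Galore, STAR 2.7.0e and DESeq2 and the builds GRCh38 and GRCm39, with no role or order. The counting tool, annotation release and strand setting are not given in the sources used here, so reads of antisense or overlapping genes cannot be told apart.

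Of 70116 genes, 32582 had counts and 16197 passed edgeR's filter on low counts. The test was edgeR's quasi-likelihood test (edgeR 4.0.16, R 4.3.3, limma 3.58.1) with TMM scaling over all 12 libraries (8 residual degrees of freedom, common biological coefficient of variation 4.89%), adjusted over all tested genes. The SE after ± is the absolute log2 fold change divided by the square root of the test's F statistic. It is thus derived from the test and is not a separate estimate. Symbols were matched for 62700 identifiers (89.4%). Genes were called opposite when both comparisons with siControl passed an adjusted p of 0.05 with opposite signs. On simulated counts of the comparison between the knockdowns (15894 genes tested), edgeR called 91 of 100 genes changed by 1 on the log2 scale, 79 of 100 changed by 0.5 and 9 of 15694 unchanged genes. The 200 changed genes were drawn from genes averaging above 1 CPM, and no simulated library stood apart as siACO1 replicate 3 did. In the data 42.1% of genes were called directly, a far larger share than was changed in the simulation. These rates therefore need not hold for this comparison or for genes of low level.

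Named genes were the targets; the 5 largest direct differences each way where the higher group averaged at least 5 CPM and libraries did not overlap; the 8 largest opposite genes of each kind, outside the range of the controls; the 3 largest opposite members of each list with at least 2; and 7 ferroptosis genes. Some genes that this rule names are not reported here. Other list members and the histone list were chosen after their values were seen. The members and lists were chosen with earlier results of these data known. Counts were marked uncertain where at least 20% of exon bases overlap another gene or of 31-base stretches occur elsewhere (GENCODE release 29). Promoter windows came from RefSeq. Alternatives were DESeq2 1.42.0, other size factors, library totals, no filter, at least 10 counts in every library, a replicate block, the 6 libraries alone and leaving out each library.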

Additional observations from a re-analysis of the deposited data

How the results depend on the processing

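Over 94 recounts of called and opposite genes, 91 stayed within 1.5 times their value. Genes at least 2-fold apart numbered 474, and not 879, with at least 10 counts in every library, where 13470 genes were tested, and 862 to 907 without single libraries. Genes lowered in siSLC25A1 and raised in siACO1, 276 in all, ranged from 181 without siControl replicate 1 to 316 without siACO1 replicate 3 (182 without siControl replicate 3). Of 416 recomputed list medians 398 moved by less than a yardstick taken from the replicates. It is the square root of the summed variances of the list's mean level within siSLC25A1 and within siACO1. The siACO1 replicate 3 library enters it. For the nuclear respiratory chain it was 0.117, so the change from -0.07 to 0.02 without that library counted as no move. With library totals the medians were 0.351 for tRNA synthetases, 0.0653 for iron handling, 0.0864 for ferroptosis suppressors, -0.0504 for ferroptosis promoters, -0.107 for cholesterol genes and -0.0372 for glycolysis; with at least 10 counts the cholesterol median was -0.0945. Single libraries left out gave 0.0490 to 0.158 for NRF2 targets, 0.0898 to 0.167 for ferroptosis suppressors, -0.0975 to -0.0420 for cholesterol genes, -0.115 to 0.0769 for interferon genes and -0.0252 to 0.162 for matrix and adhesion genes. The cause of these moves was not tested. No direction of a called gene named here was reversed. Same-numbered libraries of the compared groups correlated at -0.0340 to 0.0332 in their deviations from the group means, so no large shared part was seen. The labels state no pairing, and these values cannot exclude one. With the replicate block 738 genes were opposite, 692 of them among the 704, and 6893 were called directly. Levels under about 1 CPM rest on few counts, and depth limits those calls.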

Other observations

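Lists not described by their counts in the report follow here. Of the lysosome and autophagy genes 54.2% were called in the direct comparison, against 42.1% of all tested genes. The MHC class I, epithelial and mesenchymal lists were too small to describe by more than their counts. Of 24 lysosome and autophagy genes 7 were higher in siSLC25A1 and 6 lower (median -0.02), and CTSL, cathepsin L, was the only one called in opposite directions, at 86.1, 90.9 and 93.6 CPM in siSLC25A1, 57.7, 60.2 and 68.3 CPM in siACO1 and 74.0, 74.7 and 79.3 CPM in siControl (0.54 ± 0.06 by edgeR, adjusted p = 4.45e-09). Of 8 tested genes of MHC class I and peptide loading none was higher and 1 was lower (median -0.08). Of 9 tested epithelial genes 4 were higher and none lower (median 0.36), and of 6 mesenchymal genes 4 were higher and none lower (median 0.33), so members of both lists were higher in siSLC25A1 than in siACO1. ZEB1, a mesenchymal transcription factor, was at 95.8, 102 and 103 CPM in siSLC25A1, 63.3, 67.9 and 59.3 CPM in siACO1 and 64.2, 63.1 and 64.4 CPM in siControl, a rise in siSLC25A1 (0.65) with no call in siACO1 (-0.01), and a direct difference of 0.66 ± 0.05 (adjusted p = 1.72e-11).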
